A study of Mus musculus with 11 samples.

Results

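The 10 genes described here encode inflammatory chemokines: Ccl2, Ccl3, Ccl4, Ccl5, Ccl6, Ccl7, Ccl9, Ccl12, Cxcl1 and Cxcl2. They were taken by symbol from the 22600 genes of the merged count table, and each symbol matched 1 gene. Whole distal tibiae from 11 mice, 4 Control (genotype label BMAd-WT) and 7 BMAd-DTA, gave 1 strand-specific mRNA library each. Both groups were 24 weeks old by the sample labels, were fed ad libitum, and were on the strain labelled C57BL6/SJL. Per the study's methods, controls as well as BMAd-DTA mice carried Osterix-FLPo and FAC, an Adipoq-Cre cassette in the endogenous Adipoq gene that FLPo has to flip before Cre is made. The BMAd-DTA mice also carried ROSA-DTA, in which Cre removes a LoxP-flanked STOP and so switches on diphtheria toxin A, which kills the cell that makes it. The model has limits that the study states: Cre becomes efficient only with age, recombination is incomplete, few marrow adipogenic lineage precursors are targeted, and mice with this Cre have low circulating adiponectin. Because the toxin kills cells, the comparison of these genes asks whether distal tibiae that had lost BM adipocytes held more inflammatory chemokine RNA.

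Chemokines are small secreted proteins that bind G protein-coupled receptors on leukocytes and direct their migration along a gradient. Many of the inflammatory ones, though not all, are made at a low level at rest. Injury signals induce these within hours, largely through NF-kappaB, in macrophages, endothelium, stromal cells and osteoblasts. In BM, ligands of CCR2 act on the exit of monocytes to the blood, ligands of CXCR2 act on the exit of neutrophils, and ligands of CCR1 act on myeloid cells and osteoclast precursors.

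The members lie in 3 stretches of GRCm38 (mm10). Ccl2 (ENSMUSG00000035385.5) at chr11:82035571-82037453, Ccl7 (ENSMUSG00000035373.2) at chr11:82045712-82047525 and Ccl12 (ENSMUSG00000035352.3) at chr11:82101845-82103400 are on the plus strand, in a run that also holds Ccl11 and Ccl8. Farther along chromosome 11 follow Ccl5 (ENSMUSG00000035042.2) at chr11:83525778-83530518, Ccl9 (ENSMUSG00000019122.8) at chr11:83572919-83578636, Ccl6 (ENSMUSG00000018927.3) at chr11:83587882-83593087 and Ccl3 (ENSMUSG00000000982.5) at chr11:83647844-83649355 on the minus strand, and Ccl4 (ENSMUSG00000018930.3) at chr11:83662584-83664683 on the plus strand. Cxcl1 (ENSMUSG00000029380.11) at chr5:90891241-90893115 and Cxcl2 (ENSMUSG00000058427.10) at chr5:90903871-90905938 are neighbours on the plus strand of chromosome 5. All 10 are annotated as protein coding. A gene on the other strand overlaps Ccl2 (Gm17268) and Ccl6 (E230016K23Rik), and the counts used were those of the read strand.

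The RefSeq promoter table (GRCm38.p6) held 6 of the 10, namely Cxcl1, Cxcl2, Ccl9, Ccl6, Ccl3 and Ccl12. Printed here are 4 of them, those of the neighbours Cxcl1 and Cxcl2, which had the highest fold changes below, and of the neighbours Ccl9 and Ccl6, the most abundant of the 10 in CPM. Each run is the 150 bases before the RefSeq start, 5′ to 3′ on the strand of the gene, at chr5:90891095-90891244 (plus strand), chr5:90903749-90903898 (plus strand), chr11:83578637-83578786 (minus strand) and chr11:83593088-83593237 (minus strand) in the order shown. Capitals mark each match of a kappaB motif, GGGNNNTTCC, on either strand.
Cxcl1: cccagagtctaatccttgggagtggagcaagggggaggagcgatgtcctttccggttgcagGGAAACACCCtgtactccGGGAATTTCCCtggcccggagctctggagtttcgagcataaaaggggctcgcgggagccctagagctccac
Cxcl2: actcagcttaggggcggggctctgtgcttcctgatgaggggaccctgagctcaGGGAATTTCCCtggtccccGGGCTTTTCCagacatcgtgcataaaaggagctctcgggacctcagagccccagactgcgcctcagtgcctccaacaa
Ccl9: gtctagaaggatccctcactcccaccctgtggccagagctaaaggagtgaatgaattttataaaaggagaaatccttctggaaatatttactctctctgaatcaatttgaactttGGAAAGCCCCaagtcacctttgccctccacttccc
Ccl6: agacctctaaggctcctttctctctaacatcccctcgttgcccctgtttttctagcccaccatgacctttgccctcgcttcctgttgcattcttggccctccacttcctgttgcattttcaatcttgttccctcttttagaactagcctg

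In Cxcl1 the matches began 89, 71 and 70 bases before the start, and in Cxcl2 they began 97, 96 and 78 bases before it. The pair 1 base apart in each gene overlaps within 1 run that matches the motif on both strands. The 14 bases gggaatttccctgg around it were the longest run that the upstream windows of Cxcl1 and Cxcl2 shared, and their 150 bases were 51.9% identical in a global alignment. The 14 other pairs of these 6 genes were 42.7% to 53.7% identical, and the longest runs those pairs shared were of 7 to 13 bases. Ccl9 had 1 match, 35 bases before its start. Ccl6, Ccl3 and Ccl12 had none in their 250 upstream bases, and 4.65% of all 32851 promoter windows held the motif in that stretch. A match is a likeness of letters and not evidence of binding.

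The merged counts summed to 16969529 to 18637663 per library, with medians of 17701061 in Control and 17612195 in BMAd-DTA mice, so depth differed little between groups. Levels are given as CPM on TMM-scaled library sizes, and genotype was tested alone by edgeR's quasi-likelihood method, with Benjamini-Hochberg adjustment over the 16496 genes that its filter on low counts kept. All 10 chemokines passed that filter. The 27 pairs of libraries within a group all differed by far more than sampling noise, with a chi-square statistic per gene of at least 18.3 where noise alone gives 1. Of 10 adipocyte marker genes, all 10 had a negative log2 fold change in BMAd-DTA mice (median -1.24), and 1, Retn, which encodes resistin, was called (adjusted p under 0.05). The score of these markers, the mean log2 CPM, spanned 4.87 to 5.80 in Control and 3.12 to 5.02 in BMAd-DTA mice, so 3 of the 7 BMAd-DTA mice, replicates 4, 5 and 6, were above the lowest control. In whole bone, fewer cells of a type and less RNA per cell cannot be told apart.

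The monocyte attractants Ccl2 and Ccl7 and the neutrophil attractants Cxcl1 and Cxcl2 had higher means in BMAd-DTA mice, with ratios of mean CPM of 2.72, 2.7, 3.5 and 3.57. For the other 6 chemokines this ratio lay between 0.854 and 1.23. At an adjusted p under 0.05, edgeR called 0 of the 10 chemokines and 0.0788% of all tested genes. At an unadjusted p under 0.05, 5 of the 10 were higher in BMAd-DTA mice (Ccl2, Ccl7, Ccl9, Cxcl1 and Cxcl2) and 0 were lower, beside 7.89% of all genes that were higher and 8.53% that were lower at that p. In DESeq2, run as an alternative on the same counts, 3 of the 10 had an adjusted p under 0.05 (Ccl2, Cxcl1 and Cxcl2), all higher, beside 5.42% of all genes in either direction. The median log2 fold change was 0.28 over the 10 chemokines and 0.0018 over all tested genes. The point estimates fell into separate ranges by gene. Ccl2, Ccl7, Cxcl1 and Cxcl2 had log2 fold changes between 1.41 and 1.82, and those of the other 6 lay between -0.23 and 0.29. Some 95% intervals overlapped across these ranges, such as 0.38 to 2.43 for Ccl7 and -0.35 to 0.73 for Ccl3. The genes of the 2 ranges were not tested against each other.

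**Figure D1:**
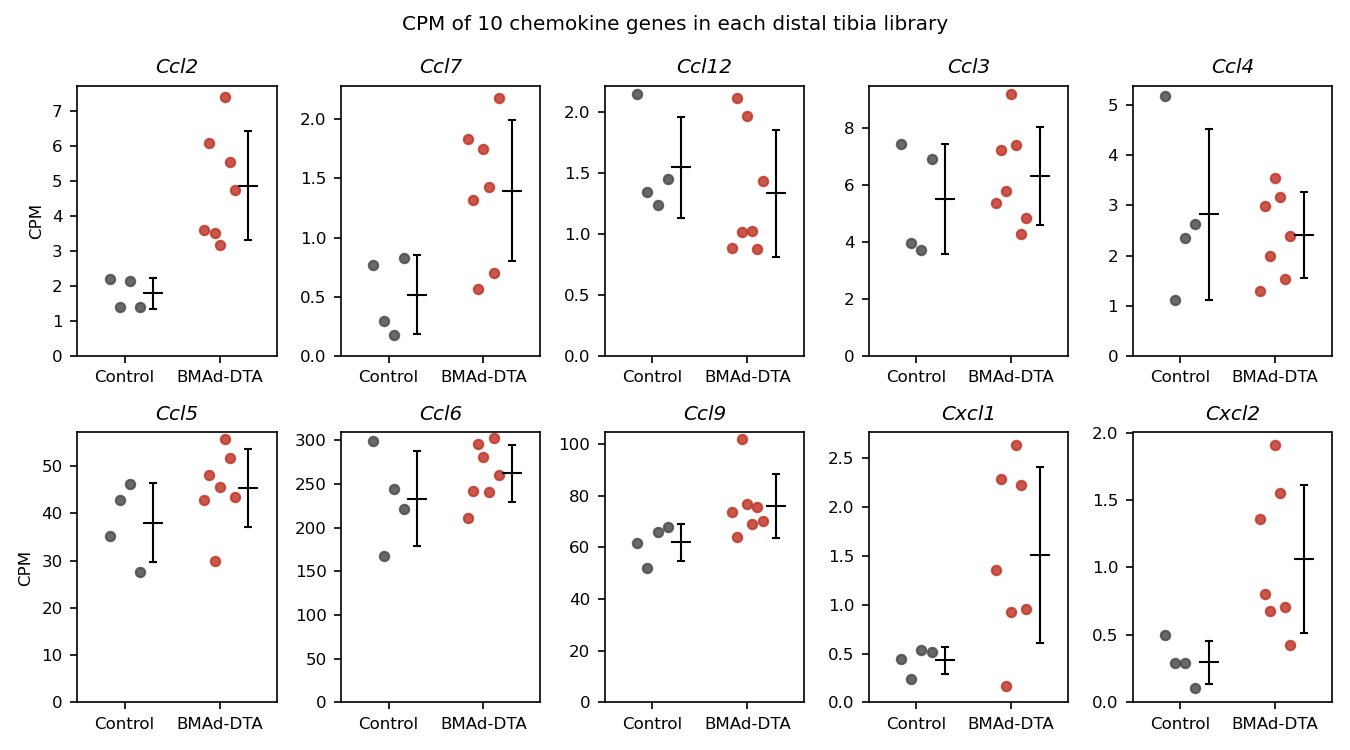
CPM of each chemokine in each library (dots, Control in grey and BMAd-DTA in red) with the group mean and SD (bar and whiskers, n = 4 and n = 7) on axes that start at 0. For Ccl2 all 7 BMAd-DTA mice (3.17 to 7.4 CPM) were above all 4 controls (1.4 to 2.2 CPM), and for the other 9 genes the groups overlapped.

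Ccl2, the main ligand of CCR2 and the chief attractant of inflammatory monocytes, was the chemokine that separated the groups. It was at 2.2, 1.41, 2.13 and 1.4 CPM in the 4 controls. In the BMAd-DTA mice the lowest value was 3.17, the median 4.74 and the highest 7.4 CPM. Every BMAd-DTA mouse was therefore above every control, as held for 1.78% of all tested genes. The means were 1.79 ± 0.439 CPM (SD, n = 4) and 4.86 ± 1.56 CPM (SD, n = 7), a ratio of 2.72. The log2 fold change was 1.44 with a standard error of 0.27 and a 95% interval from 0.85 to 2.03. Its unadjusted p of 0.00015 ranked 34 among all tested genes, and its adjusted p was 0.0675 in edgeR's quasi-likelihood test. DESeq2 gave the same log2 fold change of 1.44 with an adjusted p of 7.63e-05. A robust quasi-likelihood fit, in which 0.194% of all genes were called, gave Ccl2 an adjusted p of 0.0485. Without Control replicate 3, where 1.74% of all genes were called, it was 0.0399. In the other fits that left out 1 mouse, the adjusted p of Ccl2 stayed above 0.05 and reached 0.179 at most. These values rest on 24 to 129 counts per library. The exact Poisson 95% interval was 1.57 to 3.0 CPM for the highest control and 2.41 to 4.1 CPM for the lowest BMAd-DTA mouse. Such intervals cover counting error only.

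Ccl7, the neighbour of Ccl2 and another ligand of CCR2, was also higher in most BMAd-DTA mice. It was at 0.772, 0.294, 0.177 and 0.83 CPM in the controls. The BMAd-DTA mice ranged from 0.567 to 2.18 CPM with a median of 1.43. Of the 7, 5 lay above all controls, and replicates 3 and 6 were within the control range. The log2 fold change was 1.41 with a standard error of 0.47 (unadjusted p = 0.0109, adjusted p = 0.158 in edgeR). In DESeq2 the adjusted p was 0.0531, just outside the threshold. Ccl7 had 3 to 41 counts per library. In the control with 3 counts the exact Poisson interval was 0.0366 to 0.518 CPM.

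Ccl12, the third CCR2 ligand of the group, was not higher in BMAd-DTA mice. The controls were at 2.15, 1.35, 1.24 and 1.45 CPM. The BMAd-DTA mice were at 0.881 to 2.12 CPM with a median of 1.03, and 4 of the 7 were below every control while the others overlapped. The log2 fold change was -0.21 with a 95% interval from -0.88 to 0.45 (adjusted p = 0.789 in edgeR). That interval does not reach the estimates of Ccl2 or Ccl7, but it overlaps the 95% interval of Ccl7, from 0.38 to 2.43. The genes were not tested against each other.

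Cxcl1 and Cxcl2 attract neutrophils through CXCR2 and had the highest log2 fold changes of the 10. Cxcl1 was at 0.441, 0.236, 0.532 and 0.519 CPM in the controls. In the BMAd-DTA mice the lowest value was 0.17, the median 1.36 and the highest 2.64 CPM. Of the 7, 6 lay above all controls, whereas replicate 3 was below them with 3 counts, an exact Poisson interval of 0.0351 to 0.497 CPM. The log2 fold change was 1.78 with a standard error of 0.57 (unadjusted p = 0.00832, adjusted p = 0.146 in edgeR), and the adjusted p was 0.0311 in DESeq2. In limma-voom, another alternative, the log2 fold change was 1.43 with an adjusted p of 0.376. Leaving out 1 mouse at a time gave log2 fold changes from 1.59 to 1.98 and adjusted p values in edgeR from 0.0952, without BMAd-DTA replicate 3, to 0.388, without Control replicate 1.

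Cxcl2 was at 0.496, 0.294, 0.295 and 0.104 CPM in the controls. The BMAd-DTA mice ranged from 0.426 to 1.91 CPM with a median of 0.802. Of the 7, 6 lay above all controls and replicate 7 was within the control range. The log2 fold change was 1.82 with a standard error of 0.50 (unadjusted p = 0.00318, adjusted p = 0.107 in edgeR), and DESeq2 gave an adjusted p of 0.0222. Both genes were scarce, with 3 to 46 counts per library for Cxcl1 and 2 to 35 for Cxcl2, and the 95% intervals of their log2 fold changes were wide, from 0.54 to 3.02 and from 0.73 to 2.91.

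Ccl3, Ccl4 and Ccl5 attract macrophages, T cells and NK cells, and Ccl3 and Ccl5 are ligands of CCR1. None of them passed the test, with adjusted p of 0.761, 0.814 and 0.464 in edgeR. Ccl3 was at 7.44, 3.95, 3.72 and 6.9 CPM in the controls and at 4.29 to 9.18 CPM, median 5.79, in BMAd-DTA mice. Its log2 fold change was 0.19 with a 95% interval from -0.35 to 0.73. Ccl4 was at 5.18, 1.12, 2.36 and 2.64 CPM in the controls, and all 7 BMAd-DTA mice lay within that range, at 1.3 to 3.55 CPM with a median of 2.4. Its log2 fold change of -0.23 had a 95% interval from -1.03 to 0.57, and it turned to 0.24 without Control replicate 1, the mouse at 5.18 CPM. Ccl5 was at 35.3, 42.8, 46.3 and 27.5 CPM in the controls and at 29.9 to 55.7 CPM, median 45.6, in BMAd-DTA mice. Of the 7, 3 lay above all controls, and the log2 fold change was 0.26 with a 95% interval from -0.09 to 0.61. T cells and NK cells are known sources of Ccl5. Of the 10 T and NK cell markers, 4 were higher at an unadjusted p under 0.05 and the median log2 fold change was 0.30. The 4 were Cd3d, Cd3e, Trac and Cd4. Nkg7 and Ncr1 had log2 fold changes of -0.10 and -0.38, and Klrb1c and Gzma had 0.17 and 0.12. Of these genes, all but Cd4 and Ncr1, the extremes of the list, were named after their values were seen. The summed level of the list was 173 to 210 CPM in Control and 212 to 232 CPM in BMAd-DTA mice. Its mean log2 CPM overlapped between groups, at 3.46 to 3.78 and 3.72 to 3.91. No gene of the list separated the groups by itself, and none was called in edgeR or DESeq2. By flow cytometry, which counts cells and not RNA, the study reports fewer T cells in long bones of BMAd-DTA mice. The part of the T and NK cell markers in the level of Ccl5 was not tested.

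Ccl6 and Ccl9, ligands of CCR1 made by myeloid cells, and in the case of Ccl9 by osteoclasts, were the most abundant of the 10 in CPM. Together they gave 79.4% to 90.1% of the summed CPM of the 10 chemokines, which was 271 to 445 CPM over the libraries. Ccl9 was at 61.9, 52.1, 66.1 and 67.8 CPM in the controls and at 64 to 102 CPM, median 73.9, in BMAd-DTA mice. Of the 7, 6 lay above all controls. The log2 fold change was small at 0.29, with a standard error of 0.12, an unadjusted p of 0.0246 and an adjusted p of 0.223 in edgeR. BMAd-DTA replicate 3 was the highest at 102 CPM, and without it the log2 fold change was 0.21. Replicate 3 also had the highest score of the 7 osteoclast markers, 6.78 on the log2 scale. That score spanned 4.04 to 5.84 in Control and 4.96 to 6.78 in BMAd-DTA mice, and its part in the level of Ccl9 was not tested. Ccl6 was at 299, 168, 244 and 221 CPM in the controls and at 211 to 302 CPM, median 260, in BMAd-DTA mice. Only 1 BMAd-DTA mouse was above every control, with a log2 fold change of 0.17 and a 95% interval from -0.13 to 0.47.

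**Figure D2:**
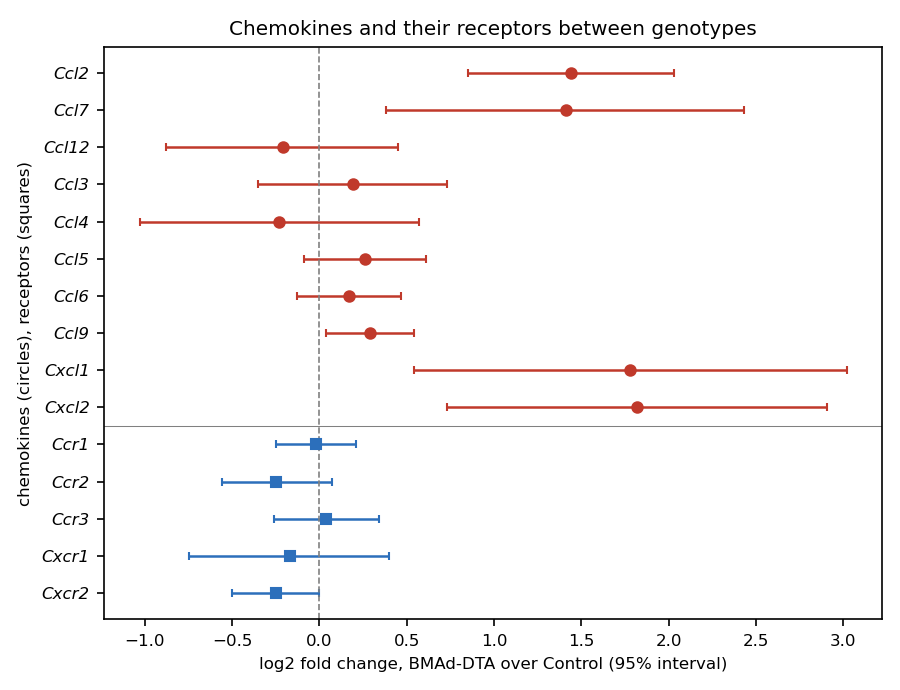
Log2 fold change of BMAd-DTA over Control for the 10 chemokines (red circles) and 5 of their receptors (blue squares), with 95% intervals from edgeR's quasi-likelihood fit. Ccl2, Ccl7, Cxcl1 and Cxcl2 lie between 1.41 and 1.82, and the receptors between -0.25 and 0.04.

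No receptor examined passed the test. Of the 5 receptor genes, none had an adjusted or an unadjusted p under 0.05 in edgeR and none was called in DESeq2, and their median log2 fold change was -0.17. Ccr2, the receptor for Ccl2, Ccl7 and Ccl12 and a marker of inflammatory monocytes, was at 154, 153, 120 and 229 CPM in the controls and at 114 to 164 CPM, median 141, in BMAd-DTA mice. Its log2 fold change of -0.25 had a 95% interval from -0.56 to 0.07. Cxcr2, the neutrophil receptor for Cxcl1 and Cxcl2, was at 181, 174, 162 and 166 CPM in the controls and at 109 to 185 CPM, median 145, in BMAd-DTA mice. Of the 7, 5 lay below all controls, and the log2 fold change was -0.25 with an unadjusted p of 0.0523 and an adjusted p of 0.31 in edgeR. Cxcr1, its close relative, had a log2 fold change of -0.17 (95% interval -0.75 to 0.40). Ccr1 was nearly level, at a mean of 64.4 ± 1.11 CPM in controls (SD, n = 4) and 63.5 ± 9.72 CPM in BMAd-DTA mice (SD, n = 7), with a log2 fold change of -0.02. Ccr3, the eosinophil receptor for Ccl5 and Ccl7 among others, had a log2 fold change of 0.04 (95% interval -0.26 to 0.34). The genes Ackr1, Ackr2 and Ccrl2, listed as atypical receptors that do not signal to migration, had 0 called of 3, with log2 fold changes from -0.31 for Ccrl2 to 0.40 for Ackr2.

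Markers of the cells that carry those receptors had medians near 0. For 11 neutrophil markers the median log2 fold change was -0.07, and the score spanned 9.95 to 10.13 in Control and 9.65 to 10.16 in BMAd-DTA mice. For 7 monocyte markers the median was -0.07, with scores of 7.34 to 7.70 and 7.26 to 7.52. None of these 18 genes, which include Ccr2 and Cxcr2, had an unadjusted p under 0.05. Of 8 macrophage markers, Cd68, a lysosomal protein of macrophages and osteoclasts, was higher in all 7 BMAd-DTA mice than in any control (log2 fold change 0.43, unadjusted p = 0.000565 and adjusted p = 0.072 in edgeR), with an adjusted p of 0.00212 in DESeq2. Adgre1, which encodes F4/80, had a log2 fold change of -0.30 (unadjusted p = 0.0214, adjusted p = 0.209 in edgeR). The median over the macrophage list was -0.15, with scores of 7.47 to 7.53 in Control and 7.18 to 7.57 in BMAd-DTA mice.

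Markers of bone cells had the highest medians. All 11 osteoblast and osteocyte markers were higher at an unadjusted p under 0.05 in edgeR (8 of 11 were called in DESeq2 and 1, Alpl, in edgeR). Their summed level was 3046 to 13076 CPM in Control and 15509 to 36262 CPM in BMAd-DTA mice, without overlap, and Col1a1 was the largest part of that sum. Their mean log2 CPM did not overlap either, at 6.84 to 8.02 and 8.27 to 9.05. Taken singly, 5 of the 11 were higher in every BMAd-DTA mouse than in any control, as held for 1.78% of all tested genes. Osteoclast markers had a median of 1.12, with 0 of 7 called in edgeR and 1 in DESeq2. Their scores overlapped, at 4.04 to 5.84 in Control and 4.96 to 6.78 in BMAd-DTA mice. At an unadjusted p under 0.05, 5 of the 7 were higher. Erythroid markers had a median of -0.53, with 5 of 6 lower at that p, 0 called in edgeR and 3 in DESeq2. Their scores overlapped, at 8.36 to 9.44 in Control and 8.40 to 9.05 in BMAd-DTA mice. B cell markers had a median of 0.53 with 1 of 7 higher at that p. Osteoblasts are a known source of Ccl2, Ccl7 and Cxcl1, and the part of the bone cell markers in the levels of these chemokines was not tested. Skeletal muscle RNA varied widely between mice, with marker scores of 0.29 to 6.10 in Control and 0.41 to 5.68 in BMAd-DTA mice. With that score as a covariate, 5 of the 10 chemokines again had an unadjusted p under 0.05, their median log2 fold change was 0.30, and that of Ccl2 was 1.41 with an adjusted p of 0.128 in edgeR. No marker gene of these lists was at 0 counts in every library.

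**Figure D3:**
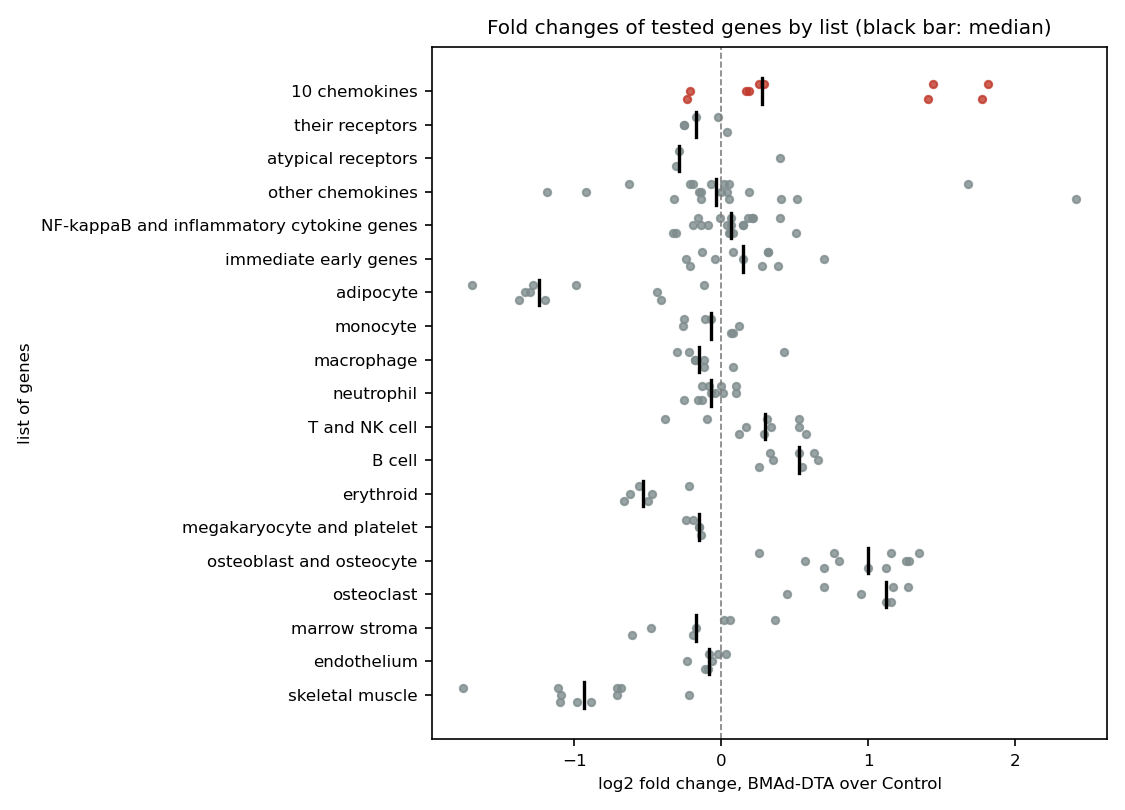
Log2 fold change (BMAd-DTA over Control, horizontal axis) of every tested gene of each list, a dot per gene with the median as a black bar. The 10 chemokines (red) split into 4 genes above 1 and 6 genes near 0, while the receptors have a median of -0.17 and the osteoclast genes one of 1.12.

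Inflammatory genes that often accompany these chemokines were split in direction, 13 higher and 7 lower. Of the 22 genes listed for NF-kappaB and inflammatory cytokines, 20 were tested, none was called in edgeR, and the median log2 fold change was 0.06. Tnf, Il1a and Il6 had log2 fold changes of 0.07, -0.14 and -0.16, and Il1b had the lowest of the list at -0.33 (standard error 0.31). Nfkbia and Tnfaip3, feedback inhibitors induced by NF-kappaB itself, had 0.15 and 0.22, with unadjusted p of 0.125 and 0.0623 in edgeR. Nfkbiz and Tnfaip2 were lower at an unadjusted p under 0.05 (log2 fold changes -0.31 and -0.19). Of this list, the genes named so far other than Il1b were chosen after their values were seen. Csf1, the growth factor of macrophages and osteoclasts, was the 1 gene of the list that was higher at that p. It was at 88.6, 81, 111 and 93 CPM in the controls and at 111 to 163 CPM, median 128, in BMAd-DTA mice, with a log2 fold change of 0.51, a standard error of 0.11 and an adjusted p of 0.072 in edgeR and 0.00212 in DESeq2. Leaving out 1 mouse at a time gave Csf1 adjusted p values from 0.039, without Control replicate 3, to 0.234. Among 11 tested immediate early genes, which respond within minutes to growth factors and tissue handling, the median was 0.15. Egr2 and Egr3 were higher at an unadjusted p under 0.05 (log2 fold changes 0.70 and 0.39, the latter named after its value was seen), and Fosb was lowest at -0.24.

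Of 26 other chemokines listed, 20 were tested, and none was called in edgeR. Their median log2 fold change was -0.04, against 0.28 for the 10. At an unadjusted p under 0.05, 3 were higher, namely Ccl17, Ccl24 and Cxcl14, and 1, Cxcl9, was lower. Ccl24, an eosinophil attractant, reached 1.68 on that scale with an adjusted p of 0.16 in edgeR and 0.0313 in DESeq2. Ccl17, a T cell attractant of dendritic cells, had the highest log2 fold change, 2.42 with a standard error of 1.12 (adjusted p = 0.303 in edgeR), and BMAd-DTA replicate 7 stood apart at 4.1 CPM. The estimate was 3.57 without Control replicate 4 and 1.57 from unstranded counts, and without replicate 7 Ccl17 fell below the filter on low counts. Cxcl14, an abundant stromal chemokine, was at 693 ± 135 CPM in controls (SD, n = 4) and 922 ± 144 CPM in BMAd-DTA mice (SD, n = 7), a log2 fold change of 0.41. Cxcl9, which interferon-gamma induces, had the lowest, -1.19, which was -0.45 without Control replicate 1. Cxcl12, the retention factor for hematopoietic stem cells, was level at 0.02. Ccl8 and Ccl11, which lie between or beside Ccl2, Ccl7 and Ccl12, had log2 fold changes of -0.63 and -0.92 with unadjusted p of 0.107 and 0.0752 in edgeR. Cxcl3, a further ligand of CXCR2, was below the filter on low counts, with 6 counts over the controls and 25 over the BMAd-DTA mice. The more abundant CXCR2 ligands Cxcl5 and Ppbp were tested and went the other way. Their log2 fold changes were -0.21 and -0.15, with unadjusted p of 0.426 and 0.457 in edgeR. Ccl24, Cxcl12, Cxcl14, Ccl8, Ccl11, Cxcl3, Cxcl5 and Ppbp were named after their values were seen.

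Levels of different genes were compared as RPKM, the CPM per kilobase of annotated exons. Ccl6 was highest at a mean of 140 RPKM over the 11 libraries, and its range of 93.6 to 168 lay above all others. Ccl5 followed at 44.4 RPKM (28.7 to 58) and Ccl9 at 23.3 RPKM (17.1 to 33.3), and these overlapped although Ccl5 was above Ccl9 in 10 of 11 libraries. Below a gap came Ccl3 at 7.84 RPKM, which was above Ccl4 in every library. Ccl4 at 3.88 RPKM was above Ccl12 at 2.63 RPKM in 10 of 11 libraries. The place of Ccl2, at 3.29 RPKM, differed between the genotypes, since it was below both of them in all 4 controls and above each of them in 6 of 7 BMAd-DTA mice. Ccl7 at 1.35, Cxcl1 at 0.597 and Cxcl2 at 0.379 RPKM came last, with overlapping ranges. Ccl2 was at 4.27 RPKM on average in BMAd-DTA mice and 1.57 in controls, against 3.66 and 4.28 for Ccl4 and 2.49 and 2.88 for Ccl12. Of the receptors, Cxcr2 was at 50.5, Ccr1 at 22.5, Ccr2 at 21.8 and Ccr3 at 10.2 RPKM, and Cxcr1 was low at 0.747 RPKM. Each of the first 4 had a mean above those of at least 7 of the 10 ligands. The range of Ccr3 (7.02 to 13.9 RPKM) overlapped that of Ccl3 (4.86 to 12 RPKM).

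**Figure D4:**
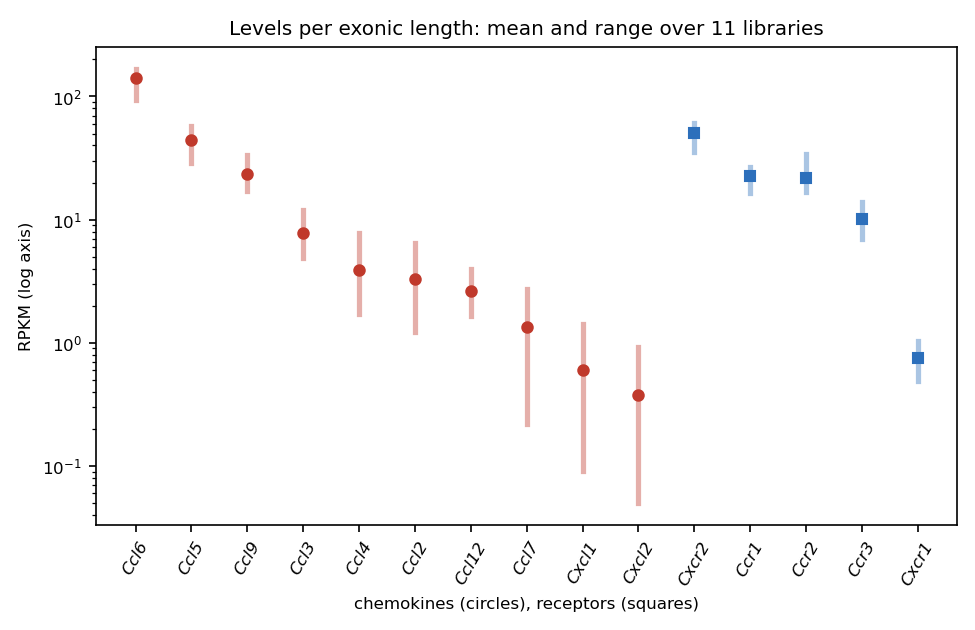
Mean RPKM (symbols) and range over the 11 libraries (bars) of the 10 chemokines (red circles) and 5 of their receptors (blue squares) on a log axis. Levels run from 140 RPKM for Ccl6 to 0.379 RPKM for Cxcl2.

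The chemokines differed in how much mice of 1 group varied. The within-group SD on the log2 scale, pooled over both groups, was highest for Cxcl1 at 0.957, followed by Ccl7 at 0.724, Cxcl2 at 0.664 and Ccl4 at 0.655. It was lowest for the abundant genes Ccl9 at 0.199, Ccl6 at 0.251 and Ccl5 at 0.304, and Ccl2 stood between them at 0.415. Among BMAd-DTA mice the highest Cxcl1 value was 15.5 times the lowest, against 2.26 times among controls. Without BMAd-DTA replicate 3, the mouse with 3 counts, it was 2.84 times. Cxcl1, Ccl7 and Cxcl2 were also the 3 with the fewest counts, and the part of counting error in that order was not tested.

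The 5 pairs were chosen by gene neighbourhood and shared receptors, and their log2 CPM was correlated over the 11 libraries after the group means were removed. Ccl3 and Ccl4 varied together (Pearson r = 0.78, permutation p = 0.00458, adjusted over the 5 pairs 0.0229, and Spearman rho = 0.81, permutation p = 0.00429, adjusted 0.0214). Without the 2 libraries farthest from the median of Ccl3, r was 0.65. The adjusted p rose above 0.05 without Control replicate 1 (0.0694), without Control replicate 2 (0.0666) or without BMAd-DTA replicate 4 (0.0623), with r between 0.72 and 0.77 in those 3. Ccl6 and Ccl9 had r = 0.55 (permutation p = 0.0799, adjusted 0.2) and rho = 0.62 (permutation p = 0.047, adjusted 0.117), and r was 0.54 without the 2 farthest libraries. No covariation within groups was detected for the other pairs. For Ccl2 with Ccl7 r was -0.07 (permutation p = 0.84, adjusted 0.891) and rho -0.05 (permutation p = 0.902, adjusted 0.902), with r of -0.03 without the 2 farthest libraries. For Cxcl1 with Cxcl2 r was 0.17 (permutation p = 0.64, adjusted 0.891) and rho 0.08 (permutation p = 0.819, adjusted 0.902), with r of -0.24 without the 2 farthest. For Ccl2 with Ccl12 r was 0.05 (permutation p = 0.891, adjusted 0.891) and rho 0.15 (permutation p = 0.652, adjusted 0.902), and r was 0.54 without the 2 farthest. With 11 libraries and few counts, weak relations were not detectable.

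**Figure D5:**
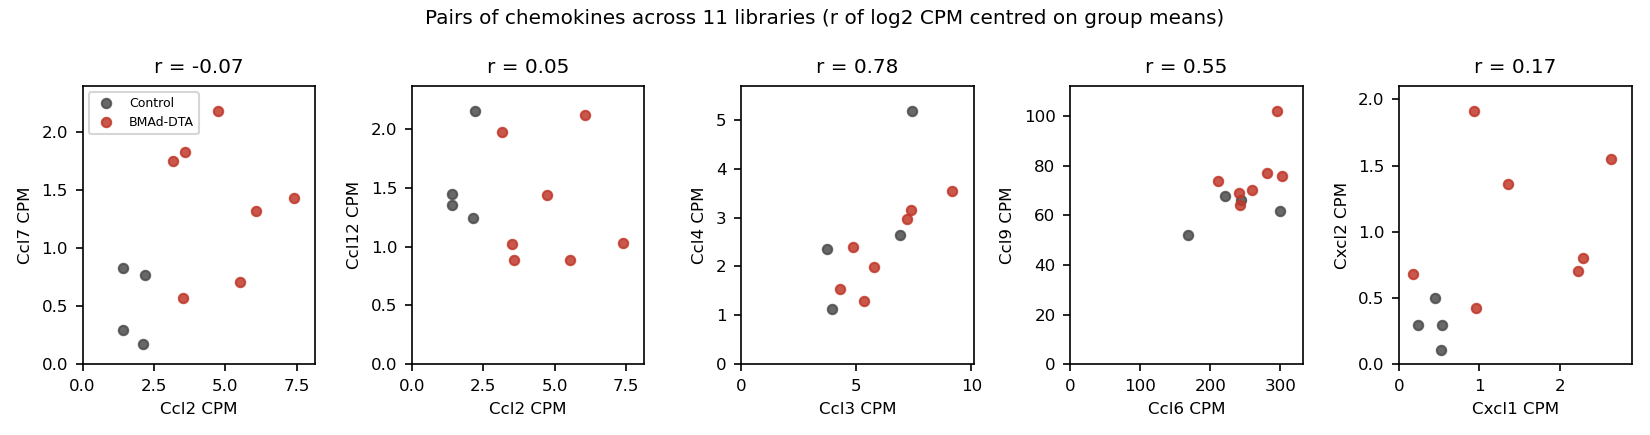
CPM of the 5 pairs of chemokines, a dot per library (Control grey, BMAd-DTA red), with Pearson r of log2 CPM centred on the group means above each panel. Ccl3 and Ccl4 line up within groups (r = 0.78), while Ccl2 and Ccl7 are both higher in BMAd-DTA mice but do not line up within a group (r = -0.07).

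For each chemokine, the gene with the most similar pattern over the 11 libraries was taken from the 12969 genes that averaged 50 counts or more, by Pearson r of log2 CPM, group differences included. For Cxcl2 it was Anpep, which encodes aminopeptidase N (r = 0.90) with a log2 fold change of 0.80 itself (adjusted p = 0.072 in edgeR). For Ccl7 it was Lpar6 (r = 0.92), for Ccl2 Timm21 (r = 0.89), for Cxcl1 Pomt2 (r = 0.96), for Ccl5 Chd3 (r = 0.94) and for Ccl12 Map3k8 (r = 0.90). For Ccl3, Ccl4, Ccl6 and Ccl9 they were Pinx1 (r = 0.92), Il18bp (r = 0.85), Zfp994 (r = 0.91) and Tbrg1 (r = 0.91). With 11 libraries and so many genes compared, such values arise readily, and they describe likeness only. The 10 chemokines themselves were left out of the genes compared, so none of them could be named here.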

How the data were processed

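Strand-specific, paired-end mRNA libraries of whole distal tibiae from 4 Control and 7 BMAd-DTA mice were checked by the authors with FastQC 0.11.9 and aligned to mm10 with STAR. The authors deposited raw counts per gene without normalization, in 1 file per library and in 1 merged table, and tested genotype with DESeq2. Their annotation release is not given in the sources used here. The merged table holds 22600 of 55401 genes at their read-strand counts and leaves out 1.32% to 1.71% of assigned counts. Unmapped (9.1% to 15.1% of pairs), multimapping (6.68% to 9.07%), unassigned (6.58% to 8.44%) and ambiguous pairs (1.49% to 1.7%) were kept out of library sizes and tests. No label gives a batch. Positions and exon lengths came from GENCODE M21, which matched 99.9% of identifiers.

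The test was edgeR 4.0.16 in R 4.3.3 (filterByExpr, TMM, glmQLFit, glmQLFTest, two-sided, Benjamini-Hochberg over 16496 genes, common biological coefficient of variation 0.202). Standard errors were taken from the estimate and the square root of F. Log2 CPM used a prior count of 2, and each pair was permuted 100000 times. The steps were tested on simulated data. The chemokines, gene lists and pairs were chosen with earlier results of these data known. Some listed genes are not reported here and were left out of their lists. The genes to be named by rule were the 10 chemokines, 5 receptors, the called genes and extremes of each list, and the most similar gene of each chemokine. Further genes of the lists were named after their values were seen, as said where they appear. Alternatives were DESeq2 1.42.0, limma-voom (limma 3.58.1), a robust fit, other scalings, filters and count columns, a muscle score covariate and each mouse left out in turn. The p values of genotype weigh the difference between groups against the spread of these 11 libraries within groups, and those of the pairs come from permuting the libraries.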

Additional observations from a re-analysis of the deposited data

Results flagged for a closer look

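In 100 groups of 4 or 7 mice, 1 for each of 50 named genes and genotype, 10 held a mouse whose gap to its nearest neighbour was large against the range of the group by Dixon's criterion, and chance flags about 1 in 20 groups. Of the 10 chemokines it was Ccl9, for which BMAd-DTA replicate 3 was at 102 CPM and the next mouse at 77 CPM. Among other chemokines it was Ccl17, at 4.1 CPM in BMAd-DTA replicate 7 with the next at 0.851 CPM. BMAd-DTA replicate 1 was highest for Fosb at 5.6 CPM, replicate 2 for Cd79a at 531 CPM, replicate 5 for Rhag at 130 CPM and replicate 7 for Myh1 at 44.3 CPM. Control replicate 3 was highest for Adrb3 at 1.71 CPM and for Ctsk at 379 CPM, and Control replicate 1 was lowest for Cd68 at 178 CPM and for Col1a1 at 1245 CPM.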

How the results depend on the processing

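No paired analysis was possible because the labels give the mice no shared replicate numbers. The count of genes called over the whole table was the least stable value: 13 in the main fit, 845 in DESeq2, 20 in limma-voom and with RLE scaling, 32 in the robust fit, 3 with the muscle covariate, and 0 to 292 when 1 mouse was left out (none without Control replicates 1 or 2 or BMAd-DTA replicates 1 or 6, each left out alone, and 292 without Control replicate 3). Alpl also lost its call without BMAd-DTA replicate 4 and with the muscle covariate. Of the 10 chemokines, 3 were called in DESeq2, 1 in the robust fit, 0 in limma-voom, and 0 to 1 when 1 mouse was left out. Between 4 and 6 had an unadjusted p under 0.05 in every alternative, and their median log2 fold change stayed between 0.26 and 0.35. None of the 5 receptors was called in any alternative. Log2 fold changes that changed sign were all small or uncertain: Ccl4 (-0.49 to 0.24), Ccr1 (-0.07 to 0.04), Ccr3 (-0.04 to 0.12), Fosb (-0.55 to 0.01), Mpo (-0.01 to 0.18), Itga2b (-0.27 to 0.02), Eng (-0.02 to 0.08) and Myh2 (-0.91 to 0.78) when 1 mouse was left out, and Myh2 with the muscle covariate (0.68). With the longest transcript as length, Ccl6 was at 175 and Ccl5 at 63.9 RPKM. Not centred on the group means, r was 0.58 for Ccl2 with Ccl7, -0.22 for Ccl2 with Ccl12 and 0.73 for Ccl3 with Ccl4 (adjusted p = 0.0565, permutation test), and in BMAd-DTA mice alone it was -0.05 for Ccl2 with Ccl12 and 0.82 for Ccl3 with Ccl4 (adjusted p = 0.149, permutation test). When 1 mouse was left out, r was -0.30 to 0.07 for Ccl2 with Ccl7, -0.18 to 0.35 for Ccl2 with Ccl12, 0.72 to 0.85 for Ccl3 with Ccl4 and -0.05 to 0.28 for Cxcl1 with Cxcl2. The cause of these shifts was not tested. Low counts limit Ccl7, Cxcl1 and Cxcl2.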
